A study of Mus musculus with 6 samples.

Results

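Blastocysts flushed from *Lif* eKO uteri after recombinant Lif (rLif) treatment were compared with blastocysts flushed from control uteri, gene by gene. Of 23420 genes in the embryo table, 14873 had at least 10 counts summed over the 3 blastocyst libraries and were analysed. At this limit, 184 genes summed to exactly 10 counts, 19 of which met the 2-fold rule given below, and 132 genes summed to 9 counts and were left out.

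Control embryos came from PBS-treated *Lif*-floxed/floxed mothers. The rLif-treated group came from *Lif*-floxed/floxed *Ltf*-Cre/+ mothers (*Lif* eKO), in which Cre driven by the lactoferrin gene *Ltf* deletes *Lif* in the uterine epithelium. These mothers received 20 µg rLif per head intraperitoneally at 10 am and 6 pm on day 4 of pregnancy, and embryos were collected at 8 pm, 2 h after the last injection. A further library, used for scaling and shown alongside, held embryos of PBS-treated *Lif* eKO mothers. By their labels, the embryos of all 3 groups were *Lif*-floxed/+, so they kept an intact *Lif* allele, and the labels do not say which embryos inherited Cre. Blastocysts of several mothers were pooled into 1 library per group. There were no replicates, the spread between animals or litters could not be estimated, and mother's genotype and treatment differed together between the compared groups.

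Lif is a cytokine of the interleukin-6 family that signals through a receptor made of Lifr and gp130 (*Il6st*), Janus kinases and the transcription factor Stat3. In mouse, it is secreted by uterine glands on the day of implantation. A blastocyst consists of the trophectoderm, the outer epithelium that attaches to the uterus and forms trophoblast, and an inner cell mass made of epiblast and primitive endoderm. Shortly before attachment, the blastocyst passes from a dormant to an activated state, which involves integrins, receptors of the epidermal growth factor family and a rise in metabolism.

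The blastocyst libraries held between 18996158 and 19638852 counts, and their TMM-scaled sizes were used for all CPM values (counts divided by the scaled library size and set to a common total). A gene was called beyond 2-fold when the exact 95% interval of the ratio of its counts lay wholly past a log2 ratio of 1 in either direction. Genes given as within 2-fold are those not called, and the intervals of some of them reach past that limit. Intervals cover counting error only, since each group was 1 library. PCR reads without molecular identifiers are not independent molecules, so the intervals can be too narrow even for counting error. The embryos were not the tissue of deletion, and *Lif* itself had 1447 counts in control blastocysts, 1736 in eKO and 1250 in rLif-treated eKO blastocysts. In the luminal layer of the uterus, the library labelled control had 0 *Lif* counts, the library labelled eKO had 28 and the library labelled eKO with rLif had 0, which is against the direction of the labels. These counts are few, and the study places Lif in the uterine glands before attachment. In the same order, the luminal sums of the Stat3 target gene list were 4549.8, 2539.0 and 7156.0 CPM. Whether the labels are right was not tested.

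Lineage identity of the samples was checked first. Blastocysts of both groups held high counts of trophectoderm genes (*Krt8*, *Krt18*, *Gata3*, *Cdx2*), epiblast genes (*Pou5f1*, *Nanog*) and primitive endoderm genes (*Gata6*, *Sox17*, *Dab2*). Of 19 oocyte genes listed, 10 had under 10 counts, *Zp1* and *Bmp15* among them with 0, and the 9 analysed summed to 2181 CPM in control, 2171 in eKO and 2786 in rLif-treated eKO blastocysts. Most of that sum came from *Khdc3*, a maternal-effect gene with 39582, 40843 and 52699 counts. The 6 analysed 2-cell genes summed to 79.8, 84.8 and 101.2 CPM, and *Zscan4c* had 0 counts in the 3 libraries. *Zscan4c* belongs to a family of near-identical copies, so its count is uncertain. Transcripts from both sexes were present in each pool. *Xist*, transcribed from the inactive X chromosome, had 2655 counts in control and 2554 in rLif-treated eKO blastocysts, and the Y-linked helicase gene *Ddx3y* had 1118 and 1062.

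Between rLif-treated eKO and control blastocysts, 734 of 14873 genes (4.94%) lay beyond 2-fold. Of these, 141 were higher (0.948%) and 593 were lower (3.99%) in the rLif-treated group. The median log2 ratio over all analysed genes, computed on CPM + 2, was -0.00. Genes were split into 3 equal classes by mean CPM, a measure that also grows with transcript length. Genes in either direction made up 10.9% of the rarest, 2.86% of the middle and 1.05% of the most abundant class. Lower genes made up 8.53% of the rarest, 2.48% of the middle and 0.948% of the most abundant class. Higher genes made up 2.36%, 0.383% and 0.101% of the same classes. Most calls thus lay among genes with few counts: 150 of the 593 lower genes had 0 counts in the rLif-treated library and 50 of the 141 higher genes had 0 counts in the control library. In pooled bulk RNA, fewer cells of a type and less RNA per cell cannot be told apart.

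**Figure D1:**
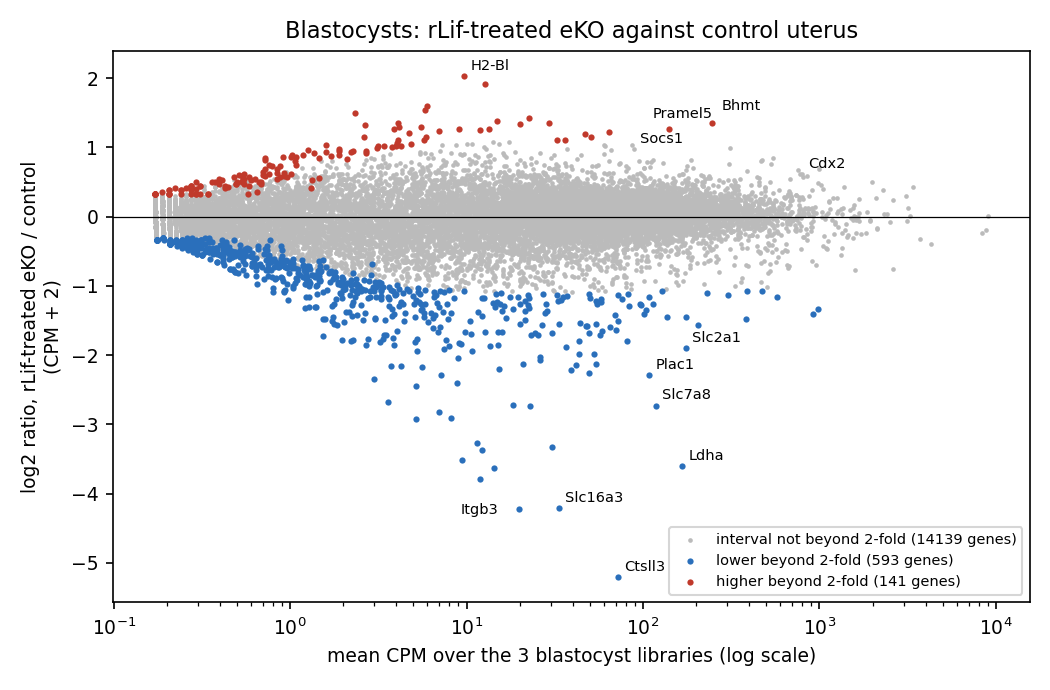
Each point is 1 of 14873 genes, with mean CPM over the 3 blastocyst libraries on a log axis and the log2 ratio of rLif-treated eKO to control blastocysts (CPM + 2) on the other axis. The 593 lower genes (blue) include several with high CPM, such as *Ldha* and *Ctsll3*, whereas only 5 of the 141 higher genes (red) belonged to the most abundant class.

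Genes with the firmest loss of counts encoded surface proteins, enzymes and transcription factors. *Ctsll3*, a member of a cathepsin-like protease family whose near-identical copies make its count uncertain, had 3804 counts in control blastocysts, 276 in eKO and 67 in rLif-treated eKO blastocysts. Its log2 ratio of rLif-treated eKO to control was -5.86 (95% interval -6.23 to -5.51). *Itgb3*, which encodes the integrin β3 subunit that pairs with αv, had 1026, 93 and 19 counts in the same order, a log2 ratio of -5.78 (-6.52 to -5.13). For both genes the control library was the highest and the rLif-treated library the lowest. *Fasl*, the ligand of the death receptor Fas, had 668, 3 and 13 counts, with a log2 ratio of -5.71 (-6.63 to -4.93). *Ptger3*, a receptor for prostaglandin E2, had 521, 6 and 11 counts, and its log2 ratio was -5.59 (-6.61 to -4.74). In these genes the eKO library had fewer counts still than the rLif-treated one, but both counts were low and no interval is given for that difference.

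Hyaluronan synthase *Has2* had 205 counts in control and 0 in both other libraries, at least 69.7-fold lower against a floor of 3 counts in the rLif-treated library. Its exons overlap the antisense gene *Has2as*, so part of the count is uncertain. *Lef1*, a transcription factor of the Wnt pathway, had 93 counts in control blastocysts, 20 in eKO and 0 in rLif-treated eKO blastocysts, at least 31.6-fold lower. *Psg29*, a pregnancy-specific glycoprotein from a multigene family with uncertain read assignment, had 88, 0 and 0 counts, at least 29.9-fold lower. These 3 genes were undetected in the rLif-treated library at this depth, not shown to be absent. The transcription factor gene *Tfec* (279, 13 and 4 counts, log2 ratio -6.15, interval -8.04 to -4.78) and the chemerin receptor gene *Gpr1* (166, 4 and 2 counts, log2 ratio -6.40, interval -9.46 to -4.53) also had few counts in the rLif-treated library. *Nfatc1*, a calcineurin-dependent transcription factor, had 712, 85 and 23 counts, with a log2 ratio of -4.98 (-5.65 to -4.38). *Podxl*, the apical sialomucin podocalyxin, had 571, 111 and 21 counts, with a log2 ratio of -4.79 (-5.50 to -4.17). In both of these genes the eKO library lay between the others.

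**Figure D2:**
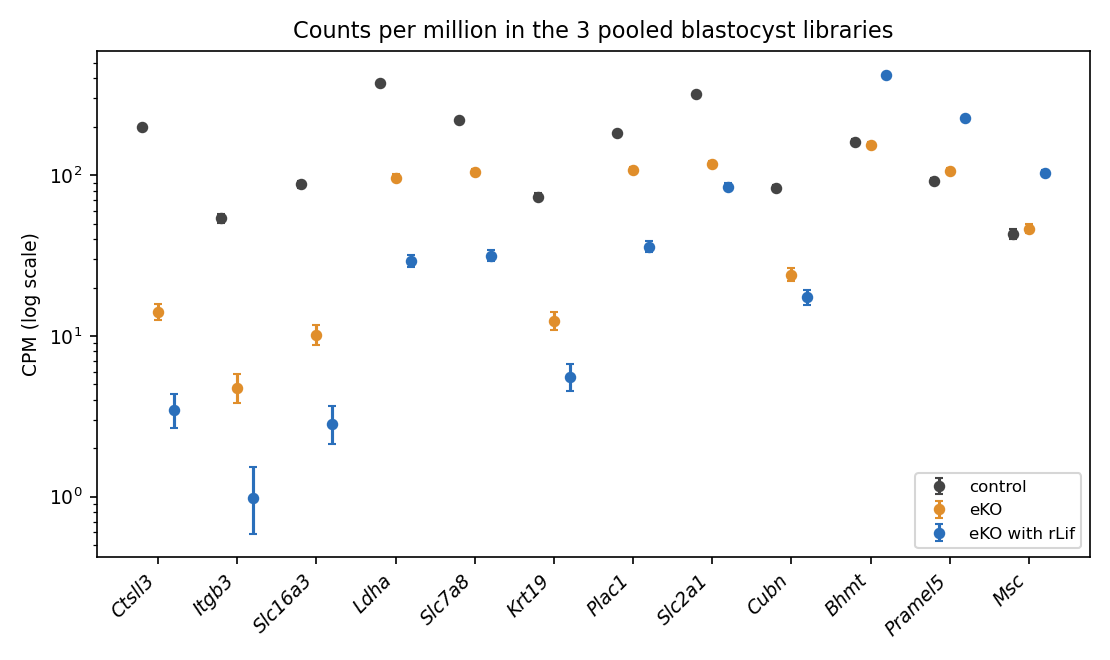
CPM on a log axis of 12 named genes in the control, eKO and rLif-treated eKO blastocyst libraries (1 pooled library each), with exact 95% Poisson intervals for counting error. The rLif-treated library was the lowest of the 3 for the first 9 genes and the highest for *Bhmt*, *Pramel5* and *Msc*.

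Glycolysis and lactate handling held genes with high control counts that were lower after rLif treatment of eKO mothers. Lactate dehydrogenase A (*Ldha*), which converts pyruvate to lactate, had 7174 counts in control blastocysts, 1888 in eKO and 567 in rLif-treated eKO blastocysts. It was 12.9-fold lower than in control (log2 ratio -3.69, 95% interval -3.82 to -3.57). *Slc16a3*, which encodes the lactate exporter Mct4, had 1668, 198 and 55 counts, with a log2 ratio of -4.95 (-5.37 to -4.56). Thus the enzyme and the exporter of lactate were both lower, and for each the eKO library was intermediate. The glucose transporter gene *Slc2a1* (Glut1) had 6133, 2286 and 1648 counts, a log2 ratio of -1.92 (-2.003 to -1.85). *Pfkl*, a phosphofructokinase subunit, had 2584, 1922 and 1080 counts, with a log2 ratio of -1.29 (-1.39 to -1.18). *Pdk1*, the kinase that restrains pyruvate dehydrogenase, had 321, 282 and 124 counts, with a log2 ratio of -1.40 (-1.71 to -1.10). The phosphofructokinase gene *Pfkp* (340, 123 and 55 counts, log2 ratio -2.66, interval -3.09 to -2.24) shares exon sequence with *Pitrm1*, so its count is uncertain.

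In all, 6 of 22 analysed glycolysis and hypoxia genes were beyond 2-fold lower and 0 were higher, against 3.99% and 0.948% of all genes. The list's median log2 ratio was -0.63, with 21 of 22 ratios below 0, and the median against control in the eKO library was -0.29. Both medians share the control library. Members within 2-fold included *Slc2a3*, a glucose transporter gene of the trophectoderm (34498, 37261 and 20521 counts, log2 ratio -0.78, interval -0.80 to -0.75), *Pgk1* (1738, 1250 and 927 counts, log2 ratio -0.93, interval -1.05 to -0.82) and pyruvate kinase *Pkm* (17894, 14419 and 13244 counts, log2 ratio -0.46, interval -0.49 to -0.43). Hexokinase *Hk2* had 7073, 8964 and 6060 counts, a log2 ratio of -0.25 (-0.30 to -0.20). The mitophagy gene *Bnip3*, also a hypoxia-responsive gene, was the 1 member above 0, with 8534, 8486 and 8916 counts. Of the 23 genes listed, *Eno1* had under 10 counts. *Eno1* and *Gapdh* (204, 143 and 185 counts) have many processed copies in the genome, so their counts are uncertain.

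The upstream sequences of the glycolysis genes are shown because several carry the letters ACGTG, the core of the element bound by hypoxia-inducible factors. The 250 bases before each gene start were searched on both strands (ACGTG or CACGT; overlapping matches, as in CACGTG, were each counted). These letters occurred in 9 of 20 glycolysis and hypoxia genes with a matched promoter and in 21.2% of 10529 promoters. The list was chosen to hold hypoxia genes, so its share can come in part from that choice. Of the 5 members beyond 2-fold lower with a matched promoter, 2 held them, with 5 matches in *Ldha* and 1 in *Slc2a1*, and *Pfkl*, *Pfkp* and *Pdk1* held 0. A match is a description of the letters and does not show a site in use. The RefSeq sequences (GRCm38.p6, plus strand, 5′ to 3′) end at the base before the gene start, with matches in capitals. *Ldha* lies at chr7:46845554-46845803 and *Slc2a1* at chr4:119108495-119108744.
Ldha: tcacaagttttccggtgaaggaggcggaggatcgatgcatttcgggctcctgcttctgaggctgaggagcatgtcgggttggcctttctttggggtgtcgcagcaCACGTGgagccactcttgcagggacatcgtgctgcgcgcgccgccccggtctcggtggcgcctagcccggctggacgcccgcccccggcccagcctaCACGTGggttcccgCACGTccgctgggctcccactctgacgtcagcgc
Slc2a1: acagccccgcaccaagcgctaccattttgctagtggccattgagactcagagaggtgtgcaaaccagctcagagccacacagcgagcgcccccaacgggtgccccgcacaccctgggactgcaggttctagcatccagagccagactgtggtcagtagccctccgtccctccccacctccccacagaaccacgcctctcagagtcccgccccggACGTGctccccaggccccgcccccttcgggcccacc

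Transporters of other nutrients followed in the same direction. *Slc7a8*, a carrier of neutral amino acids, had 4195 counts in control blastocysts, 2046 in eKO and 612 in rLif-treated eKO blastocysts, 6.99-fold lower than in control (log2 ratio -2.81, 95% interval -2.93 to -2.68). *Slc38a2*, a sodium-coupled amino acid transporter, had 1734, 1059 and 515 counts, with a log2 ratio of -1.78 (-1.92 to -1.64). *Slc7a3*, a carrier of cationic amino acids such as arginine, had 1201, 1114 and 545 counts, with a log2 ratio of -1.17 (-1.32 to -1.02). The eKO library was intermediate for these 3 genes. *Slc7a7*, whose exons overlap *Oxa1l*, had 1559, 1092 and 676 counts, with a log2 ratio of -1.23 (-1.37 to -1.10). With *Slc2a1* and *Slc16a3*, which also belong to the glycolysis list, 6 of 21 analysed nutrient transporters were beyond 2-fold lower (3.99% of all genes) and 0 higher. The list's median was -0.78, against -0.13 in the eKO library. Members within 2-fold included the glutamate carrier *Slc1a1* (11791, 11055 and 6825 counts, log2 ratio -0.82, interval -0.86 to -0.77), the heavy chain *Slc3a2* (6649, 5094 and 3881 counts, log2 ratio -0.80, interval -0.86 to -0.75) and *Slc38a4* (4951, 6169 and 5022 counts, log2 ratio -0.01, interval -0.06 to 0.05).

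Respiratory chain, ribosome biogenesis and sterol genes stayed within 2-fold. Calls in either direction made up 4.94% of all genes and 1.05% of the most abundant class, so few calls would be usual in lists this short. None of 27 analysed respiratory chain genes was called, and their median was 0.02, with single ratios on CPM + 2 from -0.38 to 0.18. None of 24 ribosome biogenesis and translation genes was called, with a median of 0.02. The 25 cholesterol and fatty acid synthesis genes had a median of -0.04 and 0 calls. *Atp5b*, the β subunit of ATP synthase, had 48142, 50342 and 46695 counts, a log2 ratio of -0.07 (-0.09 to -0.05). The spread between embryo pools is unknown for these genes as for the others.

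Of 31 analysed trophectoderm genes, 10 were beyond 2-fold lower and 0 higher, against 3.99% and 0.948% of all genes. *Cdx2*, which specifies trophectoderm, had 11832 counts in control blastocysts, 16038 in eKO and 18477 in rLif-treated eKO blastocysts, a log2 ratio of 0.61 (0.58 to 0.65). *Gata3* (19242, 24188 and 22656 counts) had a log2 ratio of 0.21 (0.18 to 0.24), and *Eomes* (12879, 12591 and 12584 counts) of -0.06 (-0.10 to -0.03). The keratin genes *Krt8* (43414, 46083 and 45421 counts) and *Krt18* (36189, 40022 and 35554 counts) had log2 ratios of 0.04 (0.02 to 0.06) and -0.05 (-0.07 to -0.03). None of these 5 genes was beyond 2-fold. By contrast, *Krt19*, another epithelial keratin, had 1401, 241 and 108 counts, with a log2 ratio of -3.73 (-4.02 to -3.44). *Ascl2*, an imprinted transcription factor needed for the placental spongiotrophoblast, had 335, 53 and 15 counts, with a log2 ratio of -4.51 (-5.36 to -3.77). Both were highest in the control library and lowest in the rLif-treated one.

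*Plac1*, an X-linked gene of the placenta, had 3488 counts in control blastocysts, 2092 in eKO and 699 in rLif-treated eKO blastocysts, 5.09-fold lower than in control (log2 ratio -2.35, 95% interval -2.47 to -2.23). *Hand1*, which drives trophoblast giant cell formation, had 253, 56 and 72 counts, with a log2 ratio of -1.84 (-2.24 to -1.46). *Elf5*, a regulator of trophoblast stem cells, had 1988, 1311 and 902 counts, with a log2 ratio of -1.17 (-1.28 to -1.05). *Bmp8b*, a Bmp ligand, had 244, 39 and 14 counts, with a log2 ratio of -4.15 (-5.04 to -3.38), and *Dlx3*, a homeobox gene needed for the placental labyrinth, had 42, 6 and 4 counts, with a log2 ratio of -3.42 (-5.36 to -1.96). *Rhox6*, *Ndrg1* and *Lgals3* completed the group, with log2 ratios of -2.13, -1.33 and -1.31. *Ndrg1*, a stress and differentiation gene, differed from the rest in that its highest count was in the eKO library (19257, 30189 and 7787 counts). The median of the trophectoderm list was -0.47, against -0.04 in the eKO library.

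**Figure D3:**
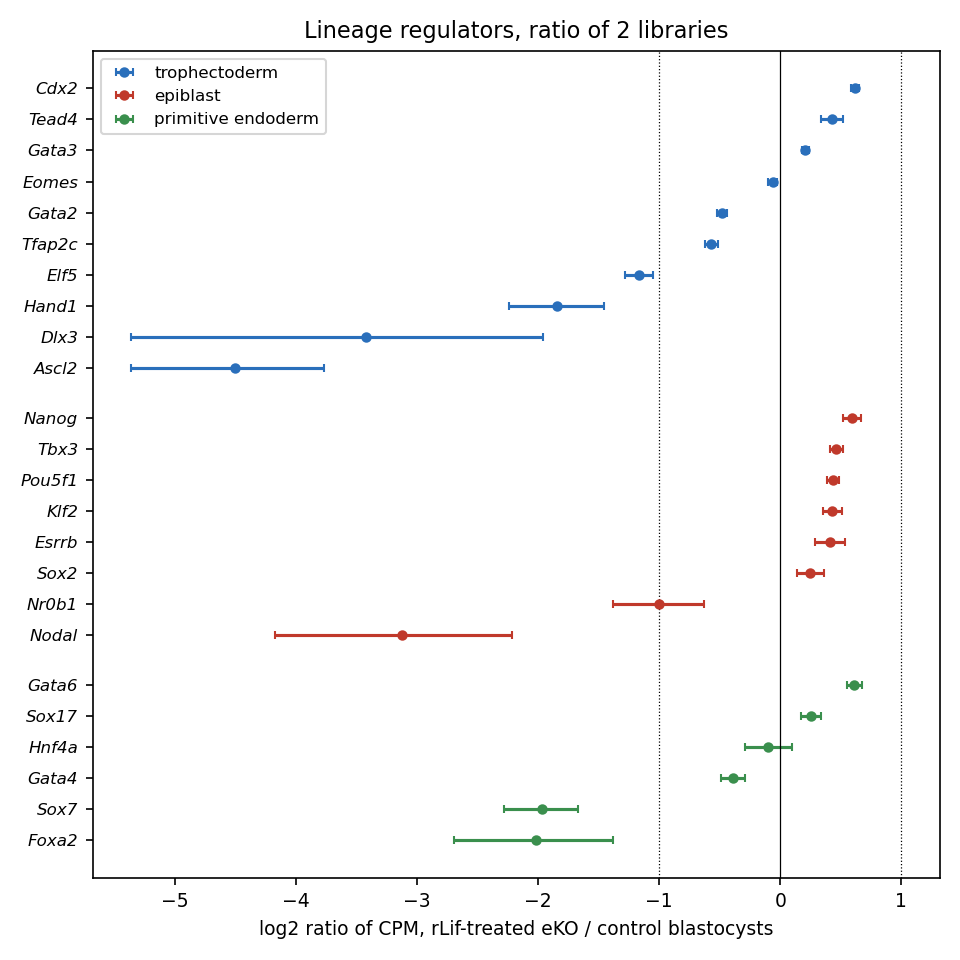
Log2 ratios of CPM, rLif-treated eKO to control blastocysts, of transcription factor and signal genes of the 3 blastocyst lineages, with exact 95% intervals for counting error and dotted lines at 2-fold. *Cdx2*, *Nanog* and *Gata6* lay near 0.6, whereas *Ascl2*, *Nodal* and *Foxa2* lay below -2.

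Epiblast genes showed mostly ratios above 0 that stayed within 2-fold. *Pou5f1* (Oct4) had 5810 counts in control blastocysts, 6172 in eKO and 8033 in rLif-treated eKO blastocysts, a log2 ratio of 0.44 (0.39 to 0.49). *Nanog*, a core pluripotency factor, had 2281, 2094 and 3512 counts, with a log2 ratio of 0.59 (0.52 to 0.67). *Dppa3* (12753, 12366 and 19867 counts), a maternal factor that protects DNA methylation, had a log2 ratio of 0.61 (0.58 to 0.64), and *Dppa5a* (33911, 37599 and 36256 counts) of 0.07 (0.05 to 0.09). In *Pou5f1*, *Nanog* and *Dppa3* the rLif-treated library was the highest of the 3. Across 27 analysed genes, 21 ratios were above 0, the median was 0.16, and 0 were beyond 2-fold higher. The 3 members beyond 2-fold lower (3.99% of all genes) encode secreted signals. *Nodal*, a Tgfβ-family ligand of the epiblast, had 94, 113 and 11 counts, with a log2 ratio of -3.12 (-4.17 to -2.22). Its inhibitor *Lefty1* had 192, 135 and 46 counts, with a log2 ratio of -2.09 (-2.59 to -1.62), while the other inhibitor *Lefty2* had 361, 705 and 491 counts, with a log2 ratio of 0.42 (0.22 to 0.62). *Fgf5*, a growth factor of the later, primed epiblast, had 84, 0 and 6 counts, with a log2 ratio of -3.84 (-5.32 to -2.65).

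Of 24 analysed primitive endoderm genes, 7 were beyond 2-fold lower and 0 higher, against 3.99% and 0.948% of all genes, with a median of -0.55. *Gata6*, the factor that starts the lineage, had 3454 counts in control blastocysts, 3547 in eKO and 5388 in rLif-treated eKO blastocysts, a log2 ratio of 0.61 (0.55 to 0.68). *Sox17* (2081, 2233 and 2531 counts) had a log2 ratio of 0.25 (0.17 to 0.34), and the receptor gene *Pdgfra* (2354, 2845 and 2718 counts) of 0.18 (0.10 to 0.26). Neither these 3 genes nor *Gata4* (1904, 2258 and 1484 counts, log2 ratio -0.39) lay beyond 2-fold. *Cubn*, the endocytic receptor cubilin, had 1587, 469 and 337 counts, with a log2 ratio of -2.26 (-2.44 to -2.09). Its membrane partner amnionless, *Amn*, had 306, 96 and 57 counts, with a log2 ratio of -2.45 (-2.89 to -2.04), whereas *Lrp2*, the large receptor that works with cubilin, had 3929, 3825 and 6016 counts, with a log2 ratio of 0.59 (0.53 to 0.64). The endoderm transcription factor genes *Sox7* (434, 323 and 113 counts) and *Foxa2* (103, 61 and 26 counts) had log2 ratios of -1.97 and -2.01. *Foxa2* is also a marker of uterine glands. *Serpinh1*, a collagen chaperone, had 11452, 10404 and 5530 counts, with a log2 ratio of -1.08 (-1.12 to -1.03). *Ttr*, a transport protein of visceral endoderm, had 15, 0 and 0 counts, at least 5.10-fold lower. Transcription factors and receptors thus stood among both the lower genes and those within 2-fold. The basement membrane genes *Lama1*, *Col4a1* and *Col4a2*, with log2 ratios of -1.01, -0.96 and -1.003, had intervals that reached inside 2-fold.

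**Figure D4:**
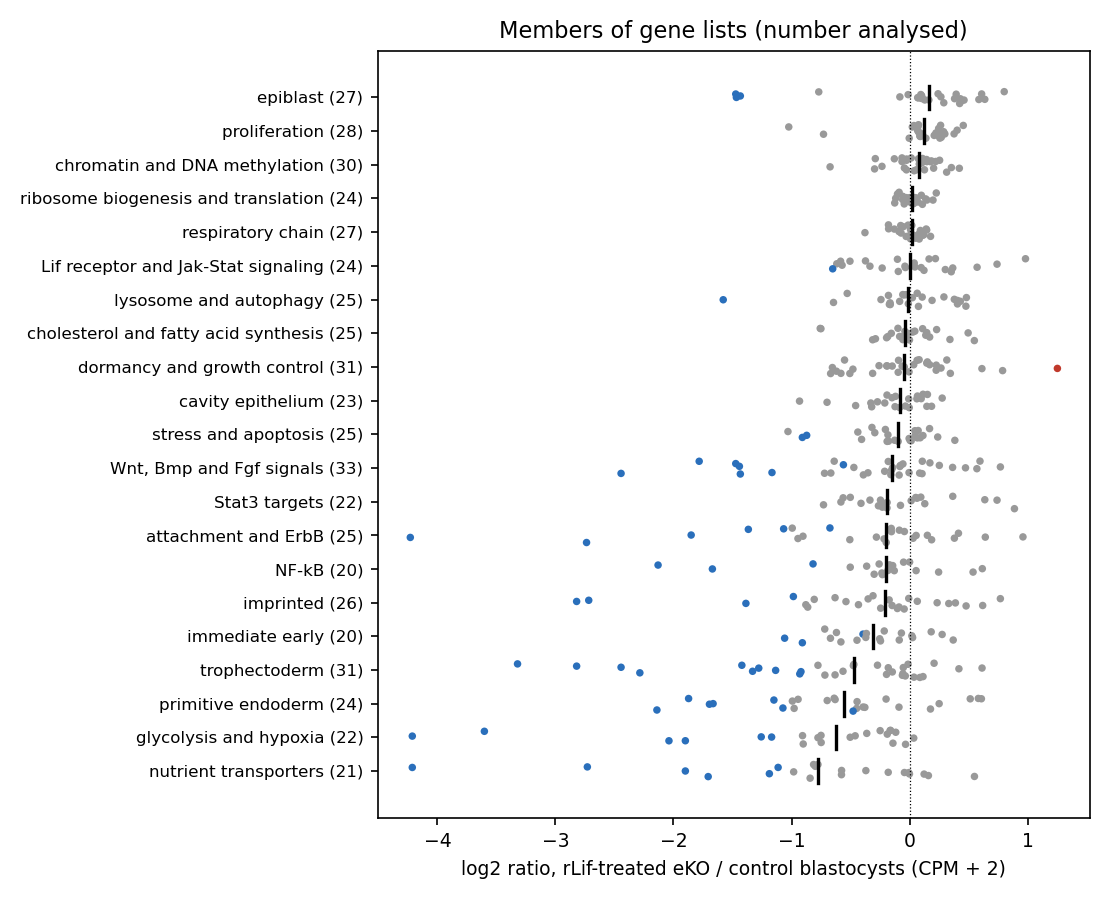
Log2 ratio on CPM + 2 of each analysed member of the gene lists with at least 20 analysed members, with the list median as a bar, members beyond 2-fold lower in blue, higher in red and the others in grey (small vertical offsets separate points). Nutrient transporters and glycolysis had medians of -0.78 and -0.63, while respiratory chain and ribosome genes clustered around 0.02. The imprinted and NF-kB lists were added after the data were seen.

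Attachment genes included some of the lower genes of the comparison. The receptor gene *Egfr* had 117 counts in control blastocysts, 33 in eKO and 5 in rLif-treated eKO blastocysts, a log2 ratio of -4.58 (-6.23 to -3.31). *Hbegf*, which encodes a ligand of that receptor, had 202, 283 and 78 counts, with a log2 ratio of -1.40 (-1.80 to -1.02). *Erbb3*, a related receptor gene, was higher but within 2-fold (828, 1331 and 1679 counts, log2 ratio 0.99, interval 0.87 to 1.11), and *Erbb4* had 0 counts in the 3 libraries. Among integrin subunits, *Itgb3* is described above, and its αv partner *Itgav* had 1282, 997 and 637 counts, with a log2 ratio of -1.04 (-1.18 to -0.90), not beyond 2-fold. The β1 subunit *Itgb1* had 4487, 4625 and 4436 counts, a log2 ratio of -0.04 (-0.10 to 0.02). *Itga7* had 987, 215 and 118 counts, with a log2 ratio of -3.09 (-3.38 to -2.82), with exons that overlap *Mettl7b*. *Emb*, the cell surface glycoprotein embigin, had 826, 527 and 303 counts, with a log2 ratio of -1.47 (-1.67 to -1.28), and the prostaglandin receptor *Ptger4* had 29, 27 and 4. *Spp1* (osteopontin), a ligand of αv integrins, had 20635, 22105 and 21863 counts, with a log2 ratio of 0.06 (0.03 to 0.08). In this list, 6 of 25 analysed genes were beyond 2-fold lower (3.99% of all genes) and 0 higher, with a median of -0.20.

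Of the receptor and signal genes of the Lif pathway, 1 was called beyond 2-fold. The receptor gene *Lifr* had 778 counts in control blastocysts, 1130 in eKO and 521 in rLif-treated eKO blastocysts, a log2 ratio of -0.61 (-0.77 to -0.44). *Il6st* had 998, 1296 and 1051 counts, with a log2 ratio of 0.05 (-0.08 to 0.17). *Stat3* had 3699, 4651 and 4870 counts, with a log2 ratio of 0.37 (0.31 to 0.43). The receptor gene thus leaned lower and the transcription factor gene higher. Feedback inhibitors of the pathway differed among themselves. *Socs1* had 1223, 1437 and 2500 counts, a log2 ratio of 1.00 with an interval from 0.90 to 1.10 across the 2-fold limit, and *Cish* had 823, 965 and 1428 counts, with a log2 ratio of 0.77 (0.64 to 0.89). *Socs3*, a direct Stat3 target, had 4031, 5440 and 3248 counts, with a log2 ratio of -0.34 (-0.41 to -0.27), so it was lowest in the rLif-treated library. The ligand gene *Clcf1* (31, 11 and 6 counts, log2 ratio -2.40, interval -3.95 to -1.11) was the 1 of 24 analysed members beyond 2-fold. That is 4.17% of the list lower, near the 3.99% of all genes.

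Stat3 target genes had 0 of 22 analysed members beyond 2-fold in either direction, where 4.94% of all genes were called. With so few members, 0 calls cannot be told apart from that share. The list's median was -0.19, against 0.15 in the eKO library. *Klf4*, a pluripotency factor, had 971, 1204 and 1561 counts, with a log2 ratio of 0.66 (0.54 to 0.77). *Pim1*, a kinase, had 133, 233 and 284 counts, with a log2 ratio of 1.07 (0.76 to 1.37), and *Myc* had 4756, 2961 and 3227 counts, with a log2 ratio of -0.59 (-0.65 to -0.52). The spaced palindrome TTCNNNGAA, bound by Stat proteins (its reverse complement is the same motif), occurred in the 250 upstream bases of 2 of 18 Stat3 targets with a matched promoter, *Socs3* and *Icam1*, and in 5.89% of all matched promoters. It occurred in 7 of 84 promoters of higher genes (8.33%) and 16 of 393 promoters of lower genes (4.07%), a difference that was not tested. The *Socs3* sequence is shown because this gene is the usual readout of Lif signaling (RefSeq, GRCm38.p6, chr11:117969367-117969616, minus strand, 5′ to 3′, motif in capitals).
Socs3: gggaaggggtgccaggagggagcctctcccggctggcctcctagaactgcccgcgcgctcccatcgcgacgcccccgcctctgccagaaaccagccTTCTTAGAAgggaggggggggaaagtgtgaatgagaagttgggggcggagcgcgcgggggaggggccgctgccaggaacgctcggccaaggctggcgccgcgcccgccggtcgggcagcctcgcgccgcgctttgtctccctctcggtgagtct

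Growth genes gave few calls, where 0.948% of all genes were higher and 3.99% lower. Among 31 analysed genes of dormancy and growth control, *Foxo3*, a transcription factor of growth arrest, was the 1 beyond 2-fold, higher, with 141 counts in control, 155 in eKO and 396 in rLif-treated eKO blastocysts (log2 ratio 1.46, interval 1.18 to 1.75). *Foxo1* (1639, 1935 and 2913 counts) was within 2-fold at 0.80 (0.71 to 0.89). *Mtor* had 931, 948 and 946 counts, a log2 ratio of -0.00 (-0.14 to 0.13). Thus the kinase that controls growth had like counts in the 3 libraries, and the list median was -0.05. Of 28 analysed proliferation genes, 0 were beyond 2-fold and 25 had ratios above 0, with a median of 0.12. *Aurka*, a mitotic kinase, had 7669, 7839 and 10730 counts, with a log2 ratio of 0.46 (0.41 to 0.50), while *Ccnd2*, a G1 cyclin, had 159, 60 and 60 counts, with a log2 ratio of -1.43 (-1.89 to -0.997). Chromatin and DNA methylation genes (0 of 30) and epithelial junction and channel genes of the cavity wall (0 of 23) also gave 0 calls, with medians of 0.08 and -0.08. The water channel *Aqp3* had 14681, 14286 and 9204 counts, with a log2 ratio of -0.70 (-0.74 to -0.66). Lysosome and autophagy genes gave 1 lower call of 25 (*Ctsz*, exons overlapping another gene, log2 ratio -1.65), near the share of all genes.

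Signal genes of the Wnt, Bmp and Fgf families gave 7 lower calls of 33 analysed members (3.99% of all genes) and 0 higher. They were *Nodal*, *Fgf5*, *Bmp8b* and *Lef1*, given above, and *Wnt11*, *Bmp7* and *Id1*. *Wnt11*, a ligand mainly of noncanonical Wnt signaling, had 164 counts in control blastocysts, 131 in eKO and 37 in rLif-treated eKO blastocysts, a log2 ratio of -2.18 (-2.73 to -1.65). *Id1*, a target of Bmp signaling, had 98, 57 and 23 counts, with a log2 ratio of -2.12 (-2.84 to -1.45), whereas its relative *Id3* had 1058, 1136 and 1620 counts, with a log2 ratio of 0.59 (0.47 to 0.70). *Id1* was thus lower and *Id3* higher in the same library, the latter within 2-fold. *Bmp7* had 21, 11 and 2 counts, a log2 ratio of -3.42 (-6.56 to -1.39). The canonical Wnt target *Axin2* had 413, 365 and 449 counts, with a log2 ratio of 0.09 (-0.10 to 0.29), and the ligand *Wnt3a* had 2526, 2886 and 3913 counts, with a log2 ratio of 0.60 (0.53 to 0.68).

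Stress genes gave 2 lower calls of 25 and immediate early genes 3 of 20, against 3.99% of all genes. The heat shock gene *Hspa1a*, whose near-identical neighbour *Hspa1b* makes its count uncertain, had 46 counts in control blastocysts, 52 in eKO and 8 in rLif-treated eKO blastocysts (log2 ratio -2.55). *Atf3*, a stress-induced transcription factor on both lists, had 50, 4 and 9 counts, with a log2 ratio of -2.50 (-3.71 to -1.46). *Fos* had 172, 101 and 64 counts, with a log2 ratio of -1.45 (-1.89 to -1.03). The chaperone *Hspa5* had 31658, 25626 and 26307 counts, a log2 ratio of -0.30 (-0.32 to -0.27), and the p53 targets *Cdkn1a* (289, 270 and 273 counts) and *Bax* (1626, 1529 and 1663) had log2 ratios of -0.11 and 0.00.

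Beyond the lists, the most abundant class held 47 lower genes. Aside from those already named, *Aif1l*, an actin-binding protein gene, had 2029 counts in control blastocysts, 420 in eKO and 402 in rLif-treated eKO blastocysts (log2 ratio -2.36, interval -2.52 to -2.21). *Mpzl1*, a cell surface glycoprotein gene, had 1858, 847 and 403 counts, with a log2 ratio of -2.23 (-2.39 to -2.08). *Dusp9*, an X-linked phosphatase of MAP kinases, had 2417, 1625 and 681 counts, with a log2 ratio of -1.86 (-1.98 to -1.73). These 3 genes were highest in control. *Tmcc3*, a transmembrane coiled-coil gene, had 1321, 1413 and 310 counts, a log2 ratio of -2.12 (-2.30 to -1.94), so the rLif-treated library stood apart from the other two. *4930506M07Rik* had 1551, 844 and 467 counts, with a log2 ratio of -1.76 (-1.91 to -1.61).

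Higher genes of the most abundant class numbered 5. *Bhmt*, the enzyme that remethylates homocysteine with betaine, had 3082 counts in control blastocysts, 3031 in eKO and 8129 in rLif-treated eKO blastocysts, a log2 ratio of 1.37 (1.31 to 1.43). *Msc*, a basic helix-loop-helix repressor gene, had 821, 909 and 2002 counts, with a log2 ratio of 1.26 (1.14 to 1.38). *Gprc5c*, an orphan receptor gene, had 641, 803 and 1498 counts, with a log2 ratio of 1.20 (1.06 to 1.33). In each the control and eKO libraries were near each other and the rLif-treated library was the highest. *Pramel5* (1754, 2068 and 4378 counts, log2 ratio 1.29, interval 1.21 to 1.37) and the germ cell gene *Tex19.2* (625, 580 and 1514 counts, log2 ratio 1.25, interval 1.11 to 1.39) showed the same order. *Pramel5* belongs to the large Pramel family, with near-identical copies, so its count is uncertain.

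Among rarer genes, *H2-Bl*, from the major histocompatibility class I family with uncertain read assignment, had 42 counts in control blastocysts, 228 in eKO and 296 in rLif-treated eKO blastocysts, a log2 ratio of 2.79 (2.32 to 3.29). *Klhl30*, a Kelch-family gene, had 12, 18 and 106 counts, with a log2 ratio of 3.11 (2.25 to 4.11). *Zscan5b* had 1, 8 and 33 counts, a log2 ratio of 5.02 with an interval from 2.44 to 10.4, and the Pramel-family gene *C87977* had 3, 18 and 39 counts, with a log2 ratio of 3.67 (2.02 to 6.01). In these 4 genes the counts rose from control to eKO to rLif-treated eKO. For *Klhl30*, the interval of the log2 ratio of eKO to control (-0.58 to 1.74) spanned 0. The other 8 firmest higher genes had 0 counts in the control library and between 17 and 30 in the rLif-treated one, among them *Serpinb2*, *Nap1l2*, *Cyp2a4*, *Zfp711*, *Slc22a15*, *Pspn* and *C5ar1*. Their bounds ran from at least 5.56-fold for *C5ar1*, the receptor of complement fragment C5a, to at least 9.81-fold for *Serpinb2*, an inhibitor of plasminogen activators. *C5ar1* was highest in the eKO library, with 61 counts.

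Called genes were also described by features that the ratio did not use, with no test. Protein-coding genes were 92.1% of the lower, 81.6% of the higher and 89.4% of all analysed genes. Median exon length was 2682 bases in higher, 2825 in lower and 2752 in all genes. Matched promoters held a median of 5.5 CpG in 84 higher genes, 11 in 393 lower genes and 15 over all 10529. The rarest class supplied 83.0% of higher and 71.3% of lower genes, and these features were not compared within class.

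Markers of maternal cells that flushing could carry along also differed between the libraries. Lower genes made up 3.99% of all genes and 8.53% of the rarest class, to which many of these low-count markers belong. Of 9 analysed uterine stroma genes, 5 were beyond 2-fold lower, and their summed level was 36.7 CPM in control, 26.7 in eKO and 20.5 in rLif-treated eKO blastocysts, against 823.8 in the library labelled luminal control. The stromal collagen gene *Col3a1* had 122, 60 and 28 counts and *Hoxa10* had 48, 17 and 6, while *Hand2* had 7, 0 and 2. Of 13 luminal epithelium genes, 4 (*Ihh*, *Cyp26a1*, *Igfbp3*, *Coch*) were lower and 1 (*Lcn2*, with 0, 64 and 13 counts) was higher, and the sum was 122.8, 136.4 and 88.9 CPM, against 15524 in the luminal control library. The defining marker *Wnt7a* had 0 counts in the 3 blastocyst libraries, and *Areg* had 6, 0 and 2.

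Of 10 leukocyte genes, 2 were lower, *Lyz2* (976, 2128 and 289 counts) and *C1qa* (104, 97 and 34), and the sum was 69.5, 136.4 and 27.2 CPM. Of 3 erythroid genes, 2 were lower, and the sum was 533.1, 479.7 and 250.9 CPM, against 45.6 in the library labelled luminal control. The sum was thus higher in each blastocyst library than in that library. The 2 lower genes were *Beta-s*, a β-globin gene with near-identical copies (9315, 8665 and 4504 counts), and the heme enzyme gene *Alas2* (831, 697 and 364). The α-globin genes *Hba-a1* and *Hba-a2*, also near-identical copies, had 0 counts, which are uncertain for the same reason. Smooth muscle markers gave 0 calls of 4, with *Acta2* at 7, 2 and 0 counts, and uterine gland markers 1 lower of 2 (*Foxa2*), with *Prss28* at 0. Endothelial markers gave 1 lower of 5 (*Kdr*, with 27, 0 and 0 counts). Their sum was 73.8, 73.5 and 98.0 CPM, highest in the rLif-treated library. Among oocyte genes, 1 of 9 was higher (*Nlrp14*, with 0, 10 and 10 counts), and among 2-cell genes, 1 of 6 was lower (*Gm13119*, with 14, 8 and 1).

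Genes with a CPM at least 10 times higher in the library labelled luminal control than in control blastocysts made up 71 of the 141 higher genes (50.4%), 117 of the 593 lower genes (19.7%) and 8.996% of all analysed genes. The control blastocyst level enters both this measure and the ratio, so a low control count raises both. The part of carried-over maternal RNA in the higher and lower genes was not tested. Without these genes, 70 genes were beyond 2-fold higher. *Ctsll3* and *Msc* had 0 counts in the luminal control library, *Bhmt* had 14 and *Plac1* had 18, whereas *Ldha* had 35091 and *Krt19* 8537.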

How the data were processed

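RNA from flushed, pooled blastocysts was made into SMART-seq v4 libraries by the authors and sequenced as paired-end reads, which were aligned to GRCm38/mm10 with HISAT2 and assigned to genes with featureCounts (Subread 2.0.0), per the submitters' processing notes and the study's methods. The deposited values are raw read counts per gene, 1 column per library. The methods describe per-kilobase values, but the table holds whole numbers with unequal totals. The gene annotation used, and how strand and multiply mapped reads were treated, were not given in the sources used here. Reads of near-identical copies or of the 2814 genes with exons overlapping another gene are therefore uncertain, and 27 rows carried symbols turned into dates. Gene positions are those of the deposited table.

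From these counts, TMM-scaled library sizes were computed with edgeR 4.0.16 under R 4.3.3 (other steps used Python 3.11.15 and scipy 1.17.1), and a gene was kept if its counts in the 3 blastocyst libraries summed to 10 or more. Each ratio has an exact 95% Clopper-Pearson interval, and each single count an exact Poisson interval. With 1 library per group no p-value is given for any gene, and edgeR's exact test was run only with assumed dispersions, for numbers of genes. The scripts were tested on simulated data. Genes named are the 12 per direction with the interval bound farthest from 0, up to 12 per direction in the most abundant class, and in each list up to 6 genes beyond 2-fold with the 2 highest in CPM. Other list members that are named, and the genes of the middle class, were chosen after their values were seen. The comparison and its 29 gene lists were chosen with earlier results of these data known; 3 lists and 2 alternatives were added after seeing the data. Promoters are RefSeq sequences on GRCm38.p6, matched by symbol where the start lay within 500 bases of the deposited one (10529 of 14873 genes). Results for 2 genes are not reported here.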

Additional observations from a re-analysis of the deposited data

Results flagged for a closer look

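In 11 named genes the call in blastocysts (rLif-treated eKO against control) was opposite to the call in the luminal layer for the same contrast, taken from the libraries labelled luminal eKO with rLif and luminal control. The difference between tissues was not tested, since each group was 1 library. The few *Lif* counts in the luminal libraries went against their labels, whereas the Stat3 target sum given above was lowest in the library labelled eKO. The following 7 genes, lower in blastocysts and higher in the luminal layer, had these log2 ratios: *Fasl* -5.71 and 1.69, *Fos* -1.45 and 1.63, *Itga7* -3.09 and 4.71, *Nfkbia* -1.997 and 1.09, *Slc38a2* -1.78 and 1.09, *Slc7a7* -1.23 and 1.81, and *Gpr1* -6.40, with 0 and 11 counts in the luminal control and rLif-treated libraries. *Fosl1*, whose exons overlap *Ccdc85b*, was at least 4.08-fold lower in blastocysts and had a luminal log2 ratio of 4.24. Of the genes higher in blastocysts, *Gprc5c* had log2 ratios of 1.20 and -2.29, *Klhl30* had a log2 ratio of 3.11 with 15 and 0 luminal counts, and *Nap1l2* was at least 7.85-fold higher with 12 and 0 luminal counts.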

How the results depend on the processing

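No paired analysis was possible because each group was 1 pooled library, and no replicate could be left out. Genes beyond 2-fold (734, with 141 higher and 593 lower) numbered 447 (69 and 378) with a minimum of 50 counts, 1654 (437 and 1217) with a log2 limit of 0.5, 149 (13 and 136) with a log2 limit of 2, and 304 (30 and 274) with an interval of higher confidence. The exact test of edgeR used another rule, a limit on the adjusted p-value against no change together with a log2 ratio past 1. By that rule 124 genes (9 and 115) were selected at an assumed dispersion of 0.1, and 15 (0 and 15) at 0.2. Alternatives chosen after seeing the data gave 70 higher genes without those at least 10 times higher in the luminal control library and, in the most abundant class alone, 52 genes (5 and 47). The limits on counts, ratio, interval and class select fewer or more genes by construction. The numbers at assumed dispersions show how far they depend on the spread between pools, which was not measured. The other scalings, no minimum, a dispersion of 0.04 and leaving out genes with exon overlap kept each count within 1.5 times. The primitive endoderm median was -0.67 with a pseudocount of 0.5, against -0.55. Medians of short lists of low-count markers moved more: uterine stroma from -0.67 to -1.54 and uterine gland from -0.68 to -1.15 with that pseudocount, and 2-cell embryo from -0.10 to 0.35 and oocyte from 0.06 to -0.05 with a minimum of 50 counts. The Lif receptor and Jak-Stat median, within 0.01 of 0, changed sign with total counts. With total counts or the RLE scaling of edgeR, the ratios of named genes moved by at most 0.004, and 6 ratios near 0 changed sign. Calls of single named genes were not compared between scalings, and a bound close to the limit, as in *Ccnd2*, can cross it. Lower genes outnumbered higher genes under each setting named here. Counting error is the only error measured, and genes under 10 counts were not analysed.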

Other observations

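Further gene groups were listed after the data were seen, so their counts are a description, to be read against 3.99% lower and 0.948% higher over all genes. Of 15 analysed prostaglandin genes, 3 were beyond 2-fold lower and 0 higher. *Hpgd*, the enzyme that inactivates prostaglandins, had 408 counts in control blastocysts, 36 in eKO and 22 in rLif-treated eKO blastocysts (log2 ratio -4.24, interval -4.93 to -3.62), next to the receptors *Ptger3* and *Ptger4*. *Ptges*, a prostaglandin E synthase, had 11247, 13676 and 14545 counts, with a log2 ratio of 0.34 (0.31 to 0.38), within 2-fold, and the list median was 0.03. *Hpgd*, *Ptger3* and *Ptger4* were the 3 lower members.

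Of 26 analysed imprinted genes, 4 were lower (3.99% of all genes) and 0 higher, with a median of -0.21. *Ascl2*, *Cd81*, *Cdkn1c* and *Phlda2* lie on distal chromosome 7, between positions 142966822 and 143502524 of GRCm38. *Phlda2*, which restrains placental growth, had 890, 59 and 105 counts, with a log2 ratio of -3.11 (-3.42 to -2.82), and the cell cycle inhibitor *Cdkn1c* had 200, 77 and 54 counts, with a log2 ratio of -1.92 (-2.38 to -1.48). In the same region, *Tssc4* had 813, 790 and 869 counts, with a log2 ratio of 0.07 (-0.07 to 0.21), and *Kcnq1ot1* had 1041, 893 and 937 counts, with a log2 ratio of -0.18 (-0.31 to -0.05), so neither lay beyond 2-fold. The exons of *Cd81* overlap another gene.

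Of 20 analysed NF-kB genes, 3 were lower (3.99% of all genes) and 0 higher, with a median of -0.20. All 3 encode inhibitors of the pathway or modulators induced by it. *Nfkbiz* had 730, 331 and 140 counts (log2 ratio -2.41, interval -2.68 to -2.15), *Nfkbia* had 411, 216 and 105 (-1.997, interval -2.32 to -1.68), and *Tnfaip3* had 36, 92 and 4 (-3.20, interval -5.15 to -1.72). The subunit gene *Rela* had 1238, 1207 and 1217 counts, with a log2 ratio of -0.05 (-0.17 to 0.06).

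In the middle class, *Gm4858* had 80 counts in control blastocysts, 247 in eKO and 417 in rLif-treated eKO blastocysts and was beyond 2-fold higher. By chromosome, the share of genes beyond 2-fold ran from 3.23% on chromosome 9 to 6.46% on chromosome X, leaving out the Y chromosome and unplaced sequences.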
